A study of Homo sapiens with 12 samples.

Results

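The genes described here are 50 genes of the DNA replication machinery: those that license origins, form the replicative helicase, synthesise DNA and hold the replication fork together. They were matched by gene symbol to a list of names drawn up by function, with earlier results of these data known, and all 50 were among the 27514 genes listed in the table of RNA-sequencing values. RNA was measured in IMR32, an established human neuroblastoma cell line in which the transcription factor gene MYCN is amplified, 72 h after small interfering RNAs were brought in by electroporation. There were 4 groups with 3 samples each: cells given a control siRNA (siCtrl), 1 siRNA against MYCN labelled siMYCN_2, 1 siRNA against the transcription factor gene HAND2 labelled siHAND2_3, or both (labelled siM2+siH2_3 and called the combined knockdown below). All groups were IMR32 cells grown in the same medium. Each target was hit by a single siRNA sequence, so effects of that sequence on other transcripts cannot be told apart from the loss of its target. The labels number the 3 samples of a group but do not say that they were separate cultures, so p-values measure the spread between these samples, which may be technical.

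DNA replication starts when the origin recognition complex (ORC) binds DNA and, with CDC6 and CDT1, loads the MCM2 to MCM7 ring as a dormant helicase. The kinase CDC7 with its partner DBF4, together with cyclin-dependent kinases, then lets CDC45 and the GINS complex join the ring to form the active CMG helicase. Primase and polymerase alpha start each strand, polymerases epsilon and delta extend them on the sliding clamp PCNA, and FEN1, DNA2 and LIG1 join the fragments of the lagging strand. Many of these genes are known targets of E2F factors as cells leave G1, and in neuroblastoma high MYCN activity is known for driving cells into S phase. HAND2 belongs to the set of transcription factors that hold neuroblastoma cells in a noradrenergic state.

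Promoter sequence was examined because E2F sites are the best-known shared feature of replication genes. RefSeq promoters (GRCh38.p14, 250 bases before to 50 after the annotated start) were found for 43 of the 50 genes, and none was printed or searched for MCM4, MCM5, GINS4, POLD3, RPA2, RPA3 and DNA2. The E2F search used TTCCCGC and, as variants of it, TTGGCGC as well as TTCGCGC and also TTGCCGC, on both strands, and matches could overlap one another. Where a gene had more than 1 promoter listed, only the first was used. At least 1 match stood in 30 of 43 replication promoters (69.8%). The share was 13.1% of the 27305 promoters of this length (1 per gene) and 21.4% of the 9663 of genes that passed the expression filter. Mean GC content was 64.6% in the replication promoters and 65.0% in those of the tested genes. CACGTG, the E-box that MYC proteins bind, stood in 7 of 43 (16.3%, against 10.4% of tested genes). CATCTG, an E-box of the class bound by HAND factors and their partners, stood in 6 of 43 (14.0%, against 8.99%), and CCAAT, searched on both strands like the others, in 24 of 43 (55.8%, against 37.2%). A match is a run of letters and not a measured binding site.

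The 250 bases before the start are shown for 5 genes whose values differ most in kind below: ORC1, which fell furthest in the combined knockdown, CDT1 and MCM6, which carry several E2F matches, MCM2, which carries the E-box, and ORC4, which has neither motif and did not fall. They are written 5′ to 3′ on the strand of the gene, with E2F matches and CACGTG in capitals.
ORC1: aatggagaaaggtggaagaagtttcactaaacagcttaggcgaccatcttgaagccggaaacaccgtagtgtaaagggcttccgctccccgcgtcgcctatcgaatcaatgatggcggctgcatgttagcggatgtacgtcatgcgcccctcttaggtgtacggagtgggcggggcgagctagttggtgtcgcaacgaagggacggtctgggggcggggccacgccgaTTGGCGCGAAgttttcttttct
CDT1: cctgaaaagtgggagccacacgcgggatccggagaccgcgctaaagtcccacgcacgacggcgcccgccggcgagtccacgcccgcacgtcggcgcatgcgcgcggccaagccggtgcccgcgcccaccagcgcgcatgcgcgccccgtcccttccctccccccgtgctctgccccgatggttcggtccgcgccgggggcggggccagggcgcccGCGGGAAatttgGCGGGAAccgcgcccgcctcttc
MCM6: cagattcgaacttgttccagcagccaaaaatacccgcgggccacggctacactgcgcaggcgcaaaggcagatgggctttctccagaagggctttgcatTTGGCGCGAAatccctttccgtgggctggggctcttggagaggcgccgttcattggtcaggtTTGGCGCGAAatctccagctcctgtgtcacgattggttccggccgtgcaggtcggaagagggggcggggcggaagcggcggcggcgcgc
MCM2: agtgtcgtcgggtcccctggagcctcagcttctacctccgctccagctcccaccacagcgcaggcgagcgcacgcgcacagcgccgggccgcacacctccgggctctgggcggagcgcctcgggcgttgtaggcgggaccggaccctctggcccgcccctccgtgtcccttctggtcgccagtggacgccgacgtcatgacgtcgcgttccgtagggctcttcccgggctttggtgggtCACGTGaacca
ORC4: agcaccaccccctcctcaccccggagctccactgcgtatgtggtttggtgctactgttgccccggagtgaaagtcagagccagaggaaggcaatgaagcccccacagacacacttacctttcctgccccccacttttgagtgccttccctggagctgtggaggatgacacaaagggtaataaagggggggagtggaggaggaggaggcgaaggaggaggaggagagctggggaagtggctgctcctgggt
In GRCh38.p14 they lie at chr1:52404424-52404673 (minus strand, ORC1), chr16:88803539-88803788 (plus, CDT1), chr2:135876444-135876693 (minus, MCM6), chr3:127598161-127598410 (plus, MCM2) and chr2:148021552-148021801 (minus, ORC4), each directly upstream of the annotated transcription start. The capitals TTGGCGCGAA, once in ORC1 and at 2 places in MCM6, hold 2 overlapping E2F matches each, 1 per strand. CDT1 has 2 copies of GCGGGAA, the reverse complement of TTCCCGC, and both lie close to the start. MCM2 has an E2F match only in the 50 bases after the start, which are not shown. ORC4 had no match in the whole window.

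Sequencing depth, estimated from the CPM worth of 1 read, was 31.6 to 64.1 M reads per sample, and all 50 genes passed the filter of a mean of at least 1 CPM (a gene's reads scaled to a fixed library total). The share of reads lying in listed genes fell with knockdown, from 65.1% ± 0.736 (SD, n = 3) in siCtrl to 62.4% ± 0.979 with siMYCN, 59.4% ± 2.39 with siHAND2 and 51.4% ± 7.04 with both siRNAs, where replicate 3 was the lowest at 44.3%. On the deposited scale the median change of all 12680 tested genes was 0.01, -0.14 and -0.28 (log2) in siMYCN, siHAND2 and the combined knockdown. Results are given on the deposited scale, and beside it after dividing each sample by its median ratio to the other samples ("rescaled"), where these medians were 0.01, 0.01 and 0.04. The targeted transcripts followed the labels. MYCN measured 964, 1049 and 1015 CPM in siCtrl, 671, 666 and 708 under siMYCN, 899, 844 and 802 under siHAND2 and 555, 458 and 433 under both siRNAs, with log2 changes of -0.57 (SE 0.12, adjusted p = 5.3e-04) in siMYCN and -1.07 (SE 0.12, adjusted p = 1.3e-08) in the combined knockdown. MYCN was not called in siHAND2, at -0.25 (SE 0.12, adjusted p = 0.086). HAND2 measured 224, 241 and 254 CPM in siCtrl, 324, 319 and 334 under siMYCN, 54.3, 64.9 and 67.7 under siHAND2 and 86.3, 67.1 and 67.2 under both siRNAs, with -1.93 (SE 0.12, adjusted p = 3.4e-12) in siHAND2 and -1.70 (SE 0.12, adjusted p = 5.8e-12) in the combined knockdown, and it rose by 0.44 in siMYCN (adjusted p = 0.0062). The noradrenergic markers PHOX2A, GATA3 and CHGA were present in every sample, while TH and DBH, which make and convert dopamine, were at most 2.06 and 10.2 CPM. Of the mesenchymal and Schwann-like markers, PRRX1 was listed at 0 in every sample, YAP1 reached 2.10 CPM and S100B 0.738 CPM, while VIM was present at 58.5 to 250.3 CPM. FN1 was present at 11.4 to 24.9 CPM, SNAI2 at 3.50 to 8.31 CPM and COL1A1 at 0.683 to 8.62 CPM. The 9 markers of that list summed to 266 to 294 CPM in siCtrl and 76.6 to 136 CPM in the combined knockdown, most of it VIM.

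Replication genes fell in every knockdown, least with siMYCN, more with siHAND2 and most with both. A change was called where limma's adjusted p was under 0.05 (Benjamini-Hochberg over all tested genes). In siMYCN, 28 of 50 were called and all of these fell, where 33.7% of all tested genes were called and 16.3% were called lower. The siHAND2 samples had 49 of 50 called lower, against 42.7% of tested genes called and 30.4% called lower. Combined knockdown also left 49 of 50 called lower, against 67.4% called and 50.1% called lower. ORC4 was the gene not called in either of the last comparisons. Median log2 changes of the 50 genes were -0.34, -0.87 and -1.67, with ranges of -0.53 to 0.07, -1.28 to -0.06 and -2.38 to -0.02. A fall of at least 1 on the log2 scale with a call was reached by 0 of the 50 genes with siMYCN (0.568% of tested genes), 7 with siHAND2 (1.97%) and 46 with both (12.5%). RNA from bulk cultures cannot tell fewer cells in S phase from less RNA of each gene per cell.

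After rescaling, 39 genes were called lower with siMYCN, 49 with siHAND2 and 49 with both siRNAs, where 22.5%, 24.9% and 33% of tested genes were. In siMYCN, rescaling added calls for ORC3, CDT1, MCM2, MCM3, POLA2, POLD1, POLD2, POLE, RFC2, RPA1, FEN1 and CHAF1B, and RPA3 lost its call. The rescaled medians were -0.33, -0.71 and -1.34. ORC4 was called higher in the rescaled combined comparison, as 37.7% of tested genes were, and no other of the 50 genes was called higher against siCtrl on either scale. Of these 3 counts the siMYCN count was the least settled. On the deposited scale it was 36 without combined replicate 1 and 39 without combined replicate 3, and 44 when only the siCtrl and siMYCN samples were fitted. The share of all tested genes called in those fits is not given here, so these counts describe the 50 genes alone. With 1 siCtrl or siMYCN sample left out, 21 to 24 of its 28 calls were kept. 21 calls were kept whichever of the 12 samples was left out, while ORC2, MCM10, CDC45, CDC7, RPA3, DNA2 and CHAF1A each lost theirs without at least 1 siCtrl or siMYCN sample. All 49 siHAND2 calls and all 49 combined calls were kept in each of these fits.

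The samples themselves separated gene by gene. Every siMYCN sample lay below every siCtrl sample in 46 of 50 genes, against 29.6% of tested genes, and the exceptions were ORC4, MCM6, GINS3 and CLSPN. The corresponding count was 49 for siHAND2 (45% of tested genes) and 49 for the combined knockdown (48.3%), with ORC4 the exception in both. In 43 genes the 4 groups followed the order siCtrl, siMYCN, siHAND2 and combined with no overlap between neighbouring groups, against 7.18% of tested genes. The genes outside that order were ORC4, ORC5, MCM6, GINS3, RPA1, TIPIN and CLSPN. Rescaled, 40 genes kept this order, against 3.9% of tested genes, and ORC2, RFC3 and RPA3 joined the exceptions.

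Summed over the 50 genes, the level was 4179 ± 59.1 CPM (SD, n = 3) in siCtrl. It was 3379 ± 108 CPM in siMYCN (80.9% of siCtrl), 2338 ± 127 CPM in siHAND2 (55.9%) and 1304 ± 214 CPM in the combined knockdown (31.2%). After rescaling the percentages were 81.4, 62.4 and 39.7%. Each group was fully separated from siCtrl, for which the two-sided exact permutation test over samples gave p = 0.1, the smallest that 3 against 3 samples allow. The combined samples were spread more widely than the others: replicate 1 was the highest of the 3 in 49 of 50 genes and replicate 3 the lowest in 39, with a median coefficient of variation of 17.0% against 3.53% in siCtrl. Rescaling brought this to 5.72%, with replicate 3 lowest in 17 genes. The fit took 1 estimate of the spread of each gene over all 4 groups. On the deposited scale, SEs of comparisons without the combined group therefore include its wider spread. SEs and p-values of combined changes may be too small for the same reason.

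**Figure D1:**
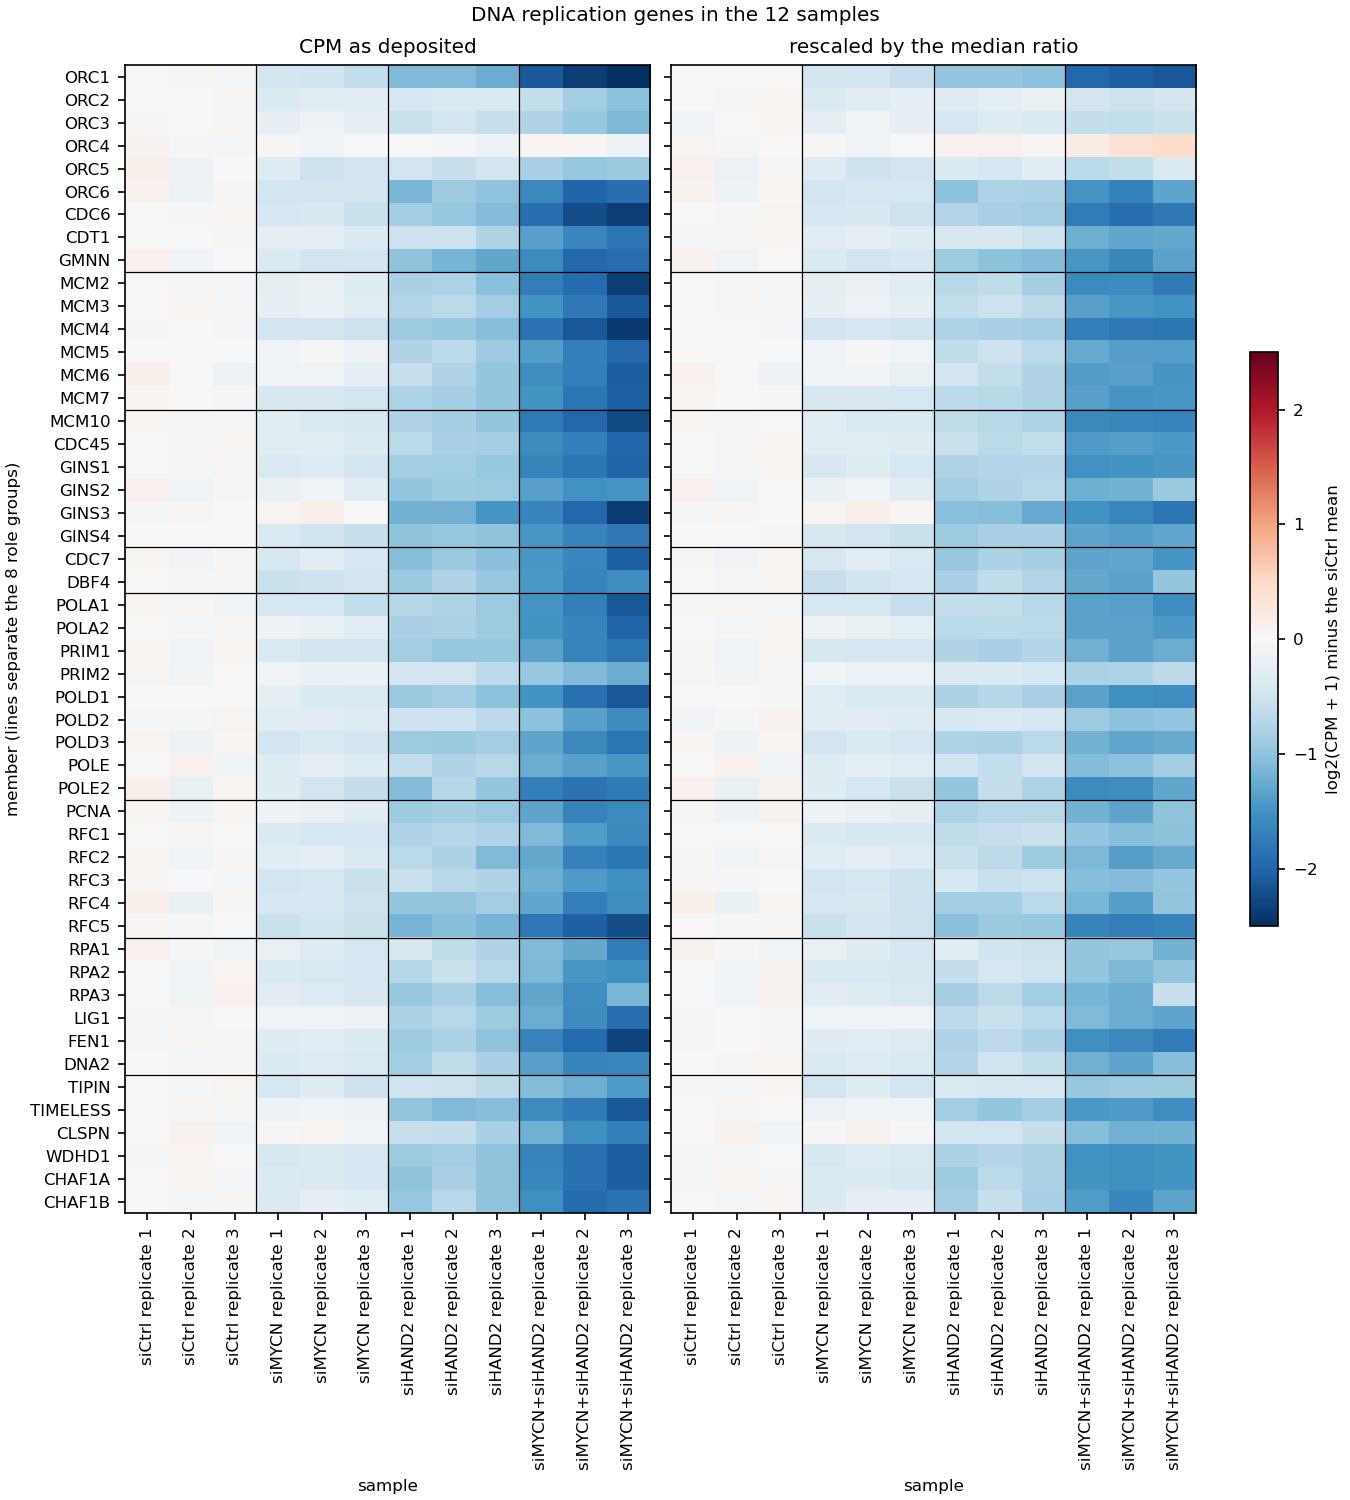
Heat map of the 50 replication genes (rows, grouped by role) in the 12 samples (columns), coloured by the log2 difference of each sample from the siCtrl mean on the log2(CPM + 1) scale, as deposited and after rescaling by the median ratio. Nearly all rows grow steadily lower across the 4 groups, most under both siRNAs, and the row of ORC4 does not.

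Origin licensing held both the largest and the smallest fall. Among its 9 genes (ORC1 to ORC6, CDC6, CDT1 and geminin), 6 were called lower with siMYCN, 8 with siHAND2 and 8 with both siRNAs. ORC1, the largest subunit of the origin recognition complex and the one whose level is known to swing with the cell cycle, measured 69.0, 69.8 and 67.1 CPM in siCtrl, 49.8, 48.6 and 44.5 under siMYCN, 31.6, 31.3 and 28.4 under siHAND2 and 15.2, 12.5 and 9.99 under both siRNAs. Each group lay wholly below the one before it, and log2 changes were -0.52 (SE 0.12, adjusted p = 0.0018) with siMYCN, -1.15 (SE 0.12, adjusted p = 4.0e-08) with siHAND2 and -2.38 (SE 0.12, adjusted p = 1.8e-14) with both siRNAs, where 18.3% of the siCtrl level was left (23.2% rescaled). CDC6, the loader that ORC recruits, measured 90.3, 87.1 and 93.3 CPM in siCtrl, 67.4, 67.7 and 60.6 under siMYCN, 49.6, 46.4 and 42.1 under siHAND2 and 23.6, 18.6 and 16.8 under both siRNAs. It was the gene with the next largest combined fall, at -2.16 (SE 0.12, adjusted p = 7.0e-14), and its single-knockdown changes were -0.46 and -0.96, both called. CDT1, which delivers the MCM ring to the loader, measured 29.8, 29.9 and 31.0 CPM in siCtrl, 25.2, 25.3 and 23.8 under siMYCN, 20.7, 20.5 and 17.7 under siHAND2 and 11.1, 9.12 and 7.85 under both siRNAs. Its samples also fell in 4 separate steps, but the siMYCN step of -0.28 (SE 0.12, adjusted p = 0.066) was not called, against -0.60 (SE 0.12, adjusted p = 1.7e-04) in siHAND2 and -1.60 (SE 0.12, adjusted p = 7.1e-12) in the combined knockdown. The siMYCN change of CDT1 was called after rescaling, at -0.27 (SE 0.06, adjusted p = 0.0019). Geminin (GMNN), which binds and holds back CDT1, changed by -0.43, -1.15 and -1.82, all called.

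ORC4, another ORC subunit, measured 49.1, 44.8 and 45.6 CPM in siCtrl, 47.8, 44.2 and 46.1 under siMYCN, 46.3, 45.4 and 42.1 under siHAND2 and 48.2, 47.4 and 42.4 under both siRNAs. The groups overlapped fully, and the log2 changes were -0.01 (SE 0.11, adjusted p = 0.93), -0.06 (SE 0.11, adjusted p = 0.68) and -0.02 (SE 0.11, adjusted p = 0.89) on the deposited scale. After rescaling, the combined change was 0.34 (SE 0.07, adjusted p = 3.3e-04) and its samples stood at 127% of the siCtrl mean, so the call of ORC4 depended on the scale. The other subunits lay between ORC1 and ORC4. ORC6 changed by -1.83 in the combined knockdown, ORC3 by -0.94, ORC5 by -0.90 and ORC2 by -0.83, all called, and rescaled by -1.50, -0.59, -0.55 and -0.49. ORC5 changed by -0.44 (SE 0.11, adjusted p = 0.0026) with siMYCN alone and by -0.50 (SE 0.11, adjusted p = 5.9e-04) with siHAND2, with overlap between those groups. ORC4 lies across parts of ACVR2A and MBD5 on the other strand, and whether its counting used strand is not given in the sources used here. The ratio of ORC1 to ORC2 CPM, which no common scaling can change, was 1.82, 1.85 and 1.73 in the siCtrl samples, 1.68, 1.55 and 1.42 with siMYCN, 1.13, 1.07 and 0.984 with siHAND2 and 0.612, 0.613 and 0.550 with both siRNAs. This ratio was chosen after the values were seen, so no test is given for it, and it shows unequal change of the 2 genes and not which of them moved. Per kilobase of transcript, ORC1 was 22.0 ± 0.446 CPM in siCtrl (SD, n = 3) and ORC4 7.11 ± 0.352, while in the combined knockdown ORC1 was 4.03 ± 0.833 and ORC4 7.03 ± 0.474, so the order of their levels was reversed.

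All 6 subunits of the MCM ring were called lower with siHAND2 and with both siRNAs, and 2 of the 6 with siMYCN. All 6 siMYCN changes were negative. MCM4 measured 246, 243 and 234 CPM in siCtrl, 174, 176 and 167 under siMYCN, 129, 125 and 115 under siHAND2 and 65.9, 54.5 and 45.1 under both siRNAs. It was called in siMYCN, at -0.48 (SE 0.12, adjusted p = 0.0034), and reached -2.12 (SE 0.12, adjusted p = 1.2e-13) in the combined knockdown, the largest fall of the ring. MCM5, which sits beside MCM2 where the ring opens, measured 127, 129 and 126 CPM in siCtrl, 119.7, 123 and 116 under siMYCN, 75.4, 80.2 and 67.9 under siHAND2 and 47.5, 38.1 and 32.0 under both siRNAs. Its siMYCN samples lay just below siCtrl and its change of -0.09 (SE 0.12, adjusted p = 0.61) was not called, while siHAND2 gave -0.77 (SE 0.12, adjusted p = 1.8e-05) and the combined knockdown -1.69 (SE 0.12, adjusted p = 8.6e-12), the smallest of the ring. MCM2 measured 239.9, 244 and 229.7 CPM in siCtrl, 202, 211 and 192 under siMYCN, 135, 139 and 115 under siHAND2 and 70.8, 62.2 and 45.9 under both siRNAs. The 4 groups did not overlap, and the log2 changes were -0.24 (SE 0.13, adjusted p = 0.17) in siMYCN, not called, and -2.00 (SE 0.13, adjusted p = 1.3e-12) in the combined knockdown. MCM3 measured 288, 297 and 282 CPM in siCtrl, 251, 259 and 240.3 under siMYCN, 173, 181 and 159 under siHAND2 and 101, 83.1 and 66.5 under both siRNAs, with changes of -0.21 (SE 0.13, adjusted p = 0.22), not called, -0.76 (SE 0.13, adjusted p = 3.1e-05) and -1.80 (SE 0.13, adjusted p = 4.7e-12). MCM6 measured 172, 159.5 and 144 CPM in siCtrl, 149, 149 and 135 under siMYCN, 105, 93.6 and 80.1 under siHAND2 and 53.4, 47.8 and 37.2 under both siRNAs. Here siMYCN and siCtrl samples overlapped, at -0.13 (SE 0.13, adjusted p = 0.47), before separate falls of -0.77 (SE 0.13, adjusted p = 3.9e-05) and -1.77 (SE 0.13, adjusted p = 1.1e-11). MCM7, the most abundant of the ring per kilobase, changed by -0.42, -0.86 and -1.79, all called.

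On the rescaled values MCM2 and MCM3 were also called in siMYCN, at -0.23 (SE 0.07, adjusted p = 0.0099) and -0.20 (SE 0.06, adjusted p = 0.0091), and MCM5 and MCM6 were not, at -0.08 (SE 0.06, adjusted p = 0.24) and -0.12 (SE 0.08, adjusted p = 0.20). A ratio of 2 genes within a sample does not depend on the scaling. That of MCM4 to MCM5 CPM was 1.94, 1.89 and 1.85 in siCtrl, 1.45, 1.43 and 1.44 with siMYCN, 1.71, 1.56 and 1.69 with siHAND2 and 1.39, 1.43 and 1.41 with both siRNAs, a description chosen after the values were seen. Of the summed MCM2 to MCM7 level per kilobase, MCM4 held 13.3% ± 0.0618 in siCtrl (SD, n = 3), 11.7% ± 0.0785 with siMYCN, 12.1% ± 0.262 with siHAND2 and 11.0% ± 0.107 with both siRNAs. MCM5 held 8.24% ± 0.217, 9.50% ± 0.0814, 8.62% ± 0.306 and 9.13% ± 0.166, and MCM7 32.5% ± 0.459, 29.8% ± 0.416, 32.0% ± 0.605 and 34.1% ± 0.882. The proteins are known to assemble in equal numbers. The transcript shares were unequal in every group. Counting of MCM7 may include reads of the microRNA genes MIR106B, MIR93 and MIR25, which lie inside it on the same strand.

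The factors that turn the loaded ring into the working CMG helicase were called lower with siHAND2 in all 6 of 6 cases, and with siMYCN in 4. GINS3, a subunit of the 4-part GINS complex, measured 66.0, 69.4 and 67.4 CPM in siCtrl, 71.3, 73.4 and 68.3 under siMYCN, 29.4, 28.8 and 23.8 under siHAND2 and 20.7, 16.5 and 12.2 under both siRNAs. Its siMYCN samples overlapped siCtrl and were not called, at 0.07 (SE 0.14, adjusted p = 0.73), whereas the siHAND2 change of -1.28 (SE 0.14, adjusted p = 4.1e-08) was the most negative of the 50 genes in that comparison and the combined change was -2.00 (SE 0.14, adjusted p = 2.4e-12). The partner GINS1 measured 50.8, 48.8 and 51.5 CPM in siCtrl, 38.2, 40.1 and 36.2 under siMYCN, 27.2, 27.0 and 25.5 under siHAND2 and 15.2, 13.6 and 11.8 under both siRNAs, with 4 separate steps and changes of -0.39 (SE 0.11, adjusted p = 0.0069), -0.90 (SE 0.11, adjusted p = 3.4e-07) and -1.83 (SE 0.11, adjusted p = 2.5e-13). GINS3 to GINS1 CPM ratios were 1.30, 1.42 and 1.31 in siCtrl, 1.87, 1.83 and 1.89 with siMYCN, 1.08, 1.07 and 0.934 with siHAND2 and 1.36, 1.21 and 1.03 with both siRNAs, again chosen after the values were seen. GINS2 measured 36.1, 31.2 and 32.6 CPM in siCtrl, 29.6, 30.7 and 27.1 under siMYCN, 16.4, 17.5 and 17.4 under siHAND2 and 12.4, 11.1 and 11.3 under both siRNAs and had the smallest combined fall of this set, -1.44 (SE 0.11, adjusted p = 9.5e-12), with -0.19 (SE 0.11, adjusted p = 0.18) in siMYCN, not called. GINS4 changed by -0.49, -0.98 and -1.64, all called. CDC45, the third component of CMG, measured 33.2, 32.2 and 34.7 CPM in siCtrl, 27.7, 27.5 and 26.2 under siMYCN, 20.4, 18.6 and 18.3 under siHAND2 and 10.6, 9.54 and 7.73 under both siRNAs. Its groups did not overlap, and its siMYCN change of -0.29 (SE 0.11, adjusted p = 0.050) was called by a margin that was lost without any 1 of the siCtrl, siMYCN or siHAND2 samples or without combined replicate 2, while -1.75 (SE 0.11, adjusted p = 9.3e-13) was called in the combined knockdown in all those fits. MCM10, which helps the helicase start to unwind, measured 94.8, 88.3 and 89.5 CPM in siCtrl, 75.7, 69.3 and 68.7 under siMYCN, 53.7, 50.7 and 45.6 under siHAND2 and 26.1, 22.6 and 18.5 under both siRNAs, with -0.35 (SE 0.12, adjusted p = 0.027) in siMYCN and -1.99 (SE 0.12, adjusted p = 3.2e-13) in the combined knockdown.

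Both genes of the initiation kinase fell in all 3 knockdowns. CDC7, the catalytic subunit, measured 88.0, 80.6 and 87.0 CPM in siCtrl, 64.3, 70.1 and 63.7 under siMYCN, 39.9, 44.4 and 40.6 under siHAND2 and 30.3, 26.8 and 19.9 under both siRNAs. DBF4, the subunit that activates it, measured 62.2, 59.5 and 62.6 CPM in siCtrl, 41.4, 42.8 and 43.8 under siMYCN, 31.8, 35.8 and 31.3 under siHAND2 and 22.2, 18.7 and 20.4 under both siRNAs. Both fell in separate steps from group to group. CDC7 changed by -0.36 (SE 0.13, adjusted p = 0.027) with siMYCN, -1.02 (SE 0.13, adjusted p = 4.0e-07) with siHAND2 and -1.71 (SE 0.13, adjusted p = 8.8e-12) with both siRNAs. DBF4 changed by -0.52 (SE 0.11, adjusted p = 5.4e-04), -0.88 (SE 0.11, adjusted p = 3.4e-07) and -1.54 (SE 0.11, adjusted p = 3.3e-12), and was among the genes with the largest siMYCN falls. The gene overlaps SLC25A40 on the other strand.

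**Figure D2:**
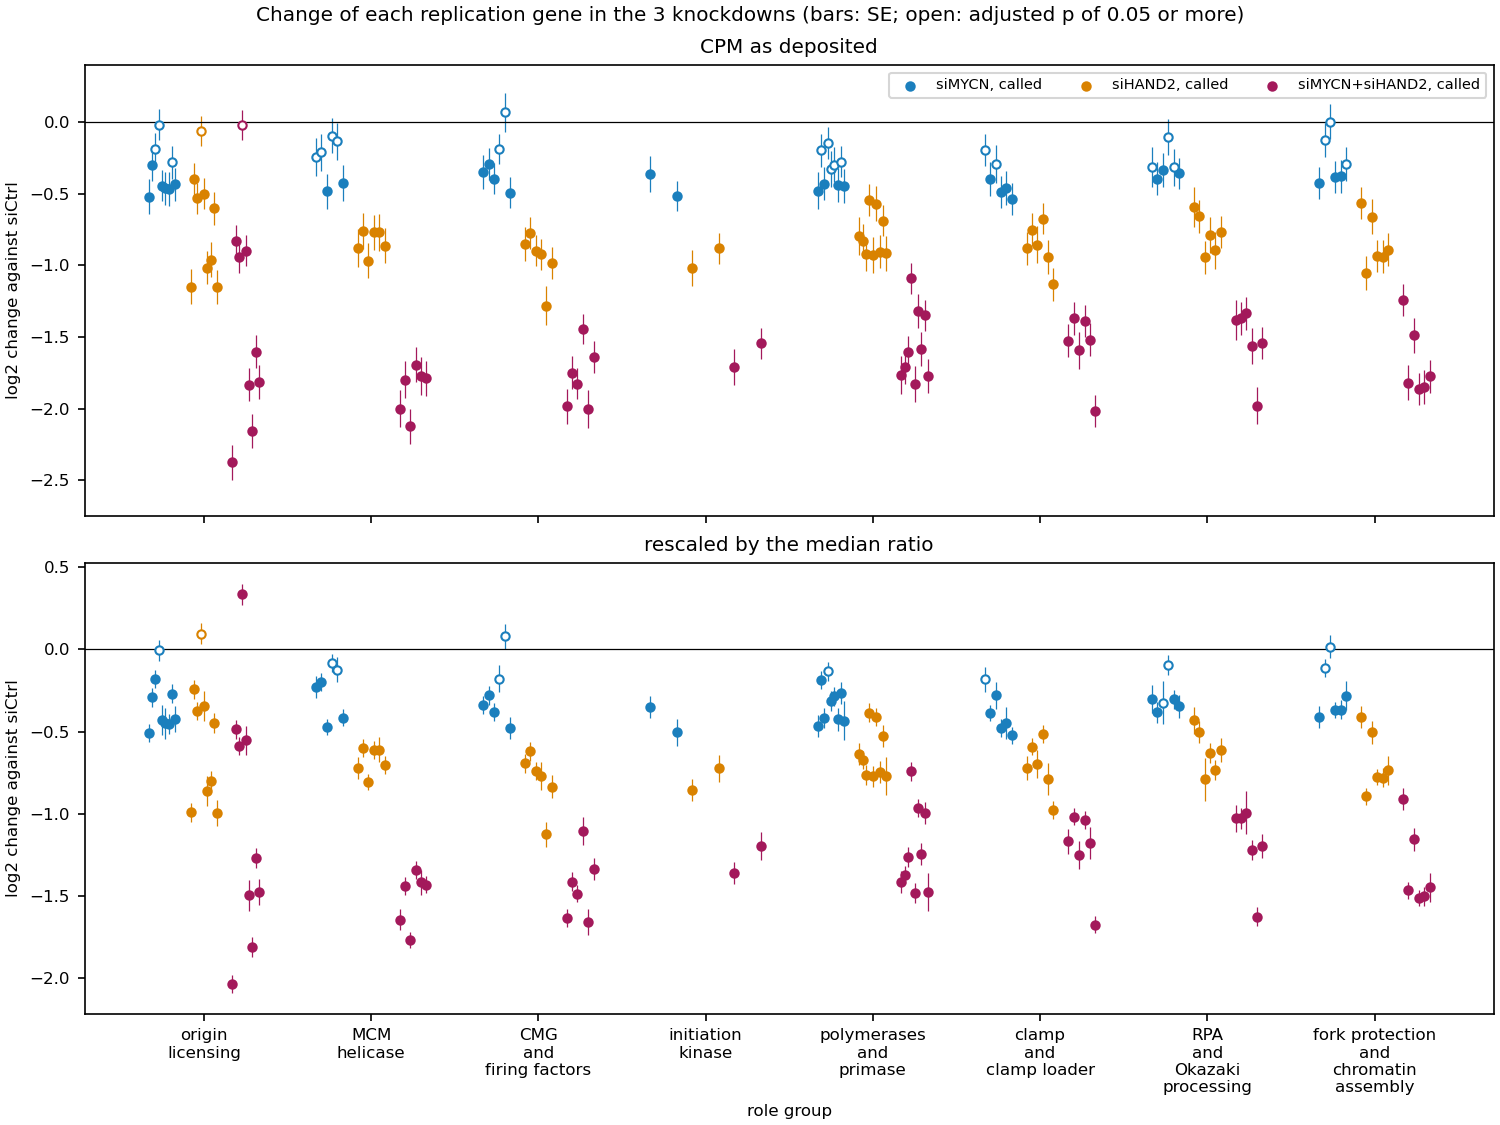
Log2 change on the log2(CPM + 1) scale of each of the 50 genes (points, by role group on the x axis) in the 3 knockdowns against siCtrl, as deposited above and rescaled below, with bars for the SE and open points for genes that were not called. In every role the points of both siRNAs lie lowest, and ORC4 stays near 0 as deposited.

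All 9 genes of the DNA polymerases and primase were called lower in siHAND2 and in the combined knockdown, and 4 of 9 in siMYCN. POLD1, the catalytic subunit of polymerase delta, measured 62.3, 62.5 and 63.5 CPM in siCtrl, 52.6, 49.1 and 48.4 under siMYCN, 32.7, 34.4 and 30.5 under siHAND2 and 21.7, 16.4 and 13.7 under both siRNAs. Its groups fell in separate steps, with -0.32 (SE 0.13, adjusted p = 0.050) with siMYCN, not called, -0.93 (SE 0.13, adjusted p = 1.8e-06) with siHAND2 and -1.83 (SE 0.13, adjusted p = 3.2e-12) with both siRNAs. PRIM2, the large primase subunit, measured 49.4, 45.4 and 48.3 CPM in siCtrl, 44.7, 42.4 and 42.1 under siMYCN, 33.9, 33.8 and 29.8 under siHAND2 and 24.4, 21.8 and 19.7 under both siRNAs and showed the smallest combined fall of these 9, -1.09 (SE 0.11, adjusted p = 2.9e-09), with no call in siMYCN at -0.14 (SE 0.11, adjusted p = 0.34). POLA2, the second subunit of polymerase alpha, measured 43.1, 42.0 and 43.8 CPM in siCtrl, 39.5, 37.5 and 35.3 under siMYCN, 24.2, 24.3 and 22.8 under siHAND2 and 14.7, 12.9 and 10.0 under both siRNAs. It too was not called in siMYCN, at -0.20 (SE 0.12, adjusted p = 0.21), and changed by -0.83 (SE 0.12, adjusted p = 3.2e-06) and -1.71 (SE 0.12, adjusted p = 2.8e-12) in the others. Subunits of 1 enzyme differed in their siMYCN call. POLA1, the catalytic subunit of polymerase alpha, was called at -0.48 and POLA2 was not. PRIM1 was called at -0.43 and PRIM2 was not. POLE2 was called at -0.44 and the catalytic POLE was not, at -0.28. POLD3 was called at -0.44 while POLD1 and POLD2 (-0.30) were not. These pairs were not tested against each other. Rescaled values called POLA2, POLD1, POLD2 and POLE lower in siMYCN as well, and PRIM2 remained outside, at -0.13 (SE 0.06, adjusted p = 0.069).

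The sliding clamp and its loader gave 4 of 6 calls in siMYCN and 6 of 6 in the other knockdowns. PCNA, the clamp itself and the most abundant of the 50 genes per kilobase in siCtrl (172 ± 12.2 CPM per kilobase, SD, n = 3), measured 226, 202 and 232 CPM in siCtrl, 201, 193 and 182 under siMYCN, 118, 123 and 116 under siHAND2 and 87.4, 68.8 and 72.1 under both siRNAs. Its groups were separate, with -0.19 (SE 0.11, adjusted p = 0.21) with siMYCN, not called, -0.88 (SE 0.11, adjusted p = 9.6e-07) with siHAND2 and -1.52 (SE 0.11, adjusted p = 1.5e-11) with both siRNAs. RFC5, a small subunit of the loader, measured 63.0, 59.9 and 62.6 CPM in siCtrl, 41.9, 43.4 and 41.7 under siMYCN, 27.0, 29.0 and 27.0 under siHAND2 and 17.2, 14.2 and 12.5 under both siRNAs. It had the most negative siMYCN change of the 50 genes, -0.53 (SE 0.11, adjusted p = 6.6e-04), and reached -1.13 (SE 0.11, adjusted p = 1.4e-08) and -2.02 (SE 0.11, adjusted p = 7.8e-14) in the others. RFC1, the large loader subunit, measured 87.5, 89.0 and 86.9 CPM in siCtrl, 68.3, 65.8 and 65.3 under siMYCN, 51.3, 53.4 and 51.0 under siHAND2 and 40.3, 32.7 and 28.2 under both siRNAs and fell least of this set in the combined knockdown, at -1.37 (SE 0.12, adjusted p = 1.4e-10). RFC3 and RFC4 were called in all 3 knockdowns, at -0.49, -0.67 and -1.39 for RFC3 and -0.46, -0.94 and -1.52 for RFC4, and RFC2 was not called in siMYCN, at -0.29 (SE 0.13, adjusted p = 0.090). Rescaled, RFC2 was called in siMYCN, at -0.28 (SE 0.08, adjusted p = 0.013). PCNA overlaps PCNA-AS1, and RFC4 overlaps EIF4A2, on the other strand. A part of their counts could come from those genes if strand was not used. The listed position of RFC2 overlaps STAG3L1, SPDYE8P, SPDYE10P, SPDYE13P, SPDYE14P and SPDYE15P on the same strand. It overlaps GTF2IP1, GTF2IP4, PMS2P5 and PMS2P7 on the other, so the counting of RFC2 may include reads of these genes.

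Among the genes that protect single strands and process lagging-strand fragments, 3 of 6 were called lower in siMYCN and all 6 in the other knockdowns. FEN1, the nuclease that trims the flap of each fragment, measured 145, 151 and 151 CPM in siCtrl, 121, 122 and 116 under siMYCN, 80.5, 85.4 and 73.9 under siHAND2 and 45.9, 38.1 and 29.1 under both siRNAs. The groups were separate, with -0.31 (SE 0.13, adjusted p = 0.061), not called, -0.89 (SE 0.13, adjusted p = 3.8e-06) and -1.98 (SE 0.13, adjusted p = 1.1e-12). Rescaled, the siMYCN change of FEN1 was called, at -0.30 (SE 0.06, adjusted p = 8.1e-04). LIG1, which seals the fragments, measured 52.1, 54.0 and 53.4 CPM in siCtrl, 49.7, 49.7 and 48.7 under siMYCN, 30.5, 32.5 and 28.2 under siHAND2 and 21.9, 17.3 and 13.7 under both siRNAs. Its siMYCN samples lay close under siCtrl, at -0.10 (SE 0.13, adjusted p = 0.56), and its falls with siHAND2 and with both were -0.79 (SE 0.13, adjusted p = 1.7e-05) and -1.56 (SE 0.13, adjusted p = 5.2e-11). RPA3, the smallest subunit of the single-strand binding complex, measured 29.9, 27.7 and 32.0 CPM in siCtrl, 24.4, 23.8 and 22.2 under siMYCN, 14.9, 16.6 and 13.7 under siHAND2 and 11.5, 9.46 and 13.0 under both siRNAs. On the log2(CPM + 1) scale, which understates changes of low genes, RPA3 had the smallest combined fall of this set, -1.33 (SE 0.12, adjusted p = 2.5e-10). RPA1 and RPA2 were close to it in the combined knockdown, at -1.38 and -1.37, and DNA2, another flap nuclease, changed by -1.54, all called. RPA3 lies across UMAD1 on the other strand.

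Fork protection and chromatin assembly genes gave 3 of 6 calls in siMYCN and 6 of 6 in the others. WDHD1, which ties the helicase to polymerase alpha, measured 74.3, 77.5 and 74.5 CPM in siCtrl, 57.2, 59.3 and 56.4 under siMYCN, 39.4, 40.8 and 37.0 under siHAND2 and 23.1, 20.1 and 17.4 under both siRNAs, with -0.38 (SE 0.11, adjusted p = 0.0099), -0.93 (SE 0.11, adjusted p = 2.7e-07) and -1.86 (SE 0.11, adjusted p = 2.8e-13) in separate steps. TIMELESS and TIPIN form 1 complex at the fork, and their siMYCN changes, which were not tested against each other, were called for TIPIN alone. TIMELESS measured 143, 146 and 139.6 CPM in siCtrl, 130.4, 133 and 130.0 under siMYCN, 71.3, 66.0 and 68.1 under siHAND2 and 47.3, 41.5 and 32.0 under both siRNAs and was not called with siMYCN, at -0.12 (SE 0.12, adjusted p = 0.47), but changed by -1.05 (SE 0.12, adjusted p = 1.5e-07) with siHAND2 and -1.82 (SE 0.12, adjusted p = 1.7e-12) with both siRNAs. TIPIN measured 20.8, 20.2 and 21.9 CPM in siCtrl, 15.1, 16.7 and 14.4 under siMYCN, 14.6, 14.1 and 13.0 under siHAND2 and 9.30, 8.45 and 7.22 under both siRNAs, fell with either siRNA, with changes of -0.42 (SE 0.11, adjusted p = 0.0043) and -0.56 (SE 0.11, adjusted p = 2.1e-04), with overlap between those groups, and reached -1.24 (SE 0.11, adjusted p = 3.2e-10) with both. Claspin (CLSPN), which carries the checkpoint signal at the fork, measured 29.8, 31.8 and 27.3 CPM in siCtrl, 30.2, 31.1 and 27.9 under siMYCN, 19.6, 19.1 and 16.5 under siHAND2 and 12.2, 9.59 and 8.21 under both siRNAs. Its siMYCN and siCtrl samples overlapped, at 0.01 (SE 0.12, adjusted p = 0.98), and it fell to -0.66 (SE 0.12, adjusted p = 1.2e-04) and -1.49 (SE 0.12, adjusted p = 8.2e-11) in the others. CHAF1A and CHAF1B are subunits of a histone chaperone. Rescaled, CHAF1B was called in siMYCN, at -0.28 (SE 0.09, adjusted p = 0.018), which it was not as deposited. CHAF1B measured 26.4, 25.1 and 26.7 CPM in siCtrl, 20.1, 21.9 and 21.4 under siMYCN, 13.0, 15.6 and 12.4 under siHAND2 and 8.29, 6.09 and 6.51 under both siRNAs, with -0.29 (SE 0.12, adjusted p = 0.057), not called, -0.89 (SE 0.12, adjusted p = 1.1e-06) and -1.77 (SE 0.12, adjusted p = 1.4e-12), and CHAF1A changed by -0.38, -0.94 and -1.85, all called.

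**Figure D3:**
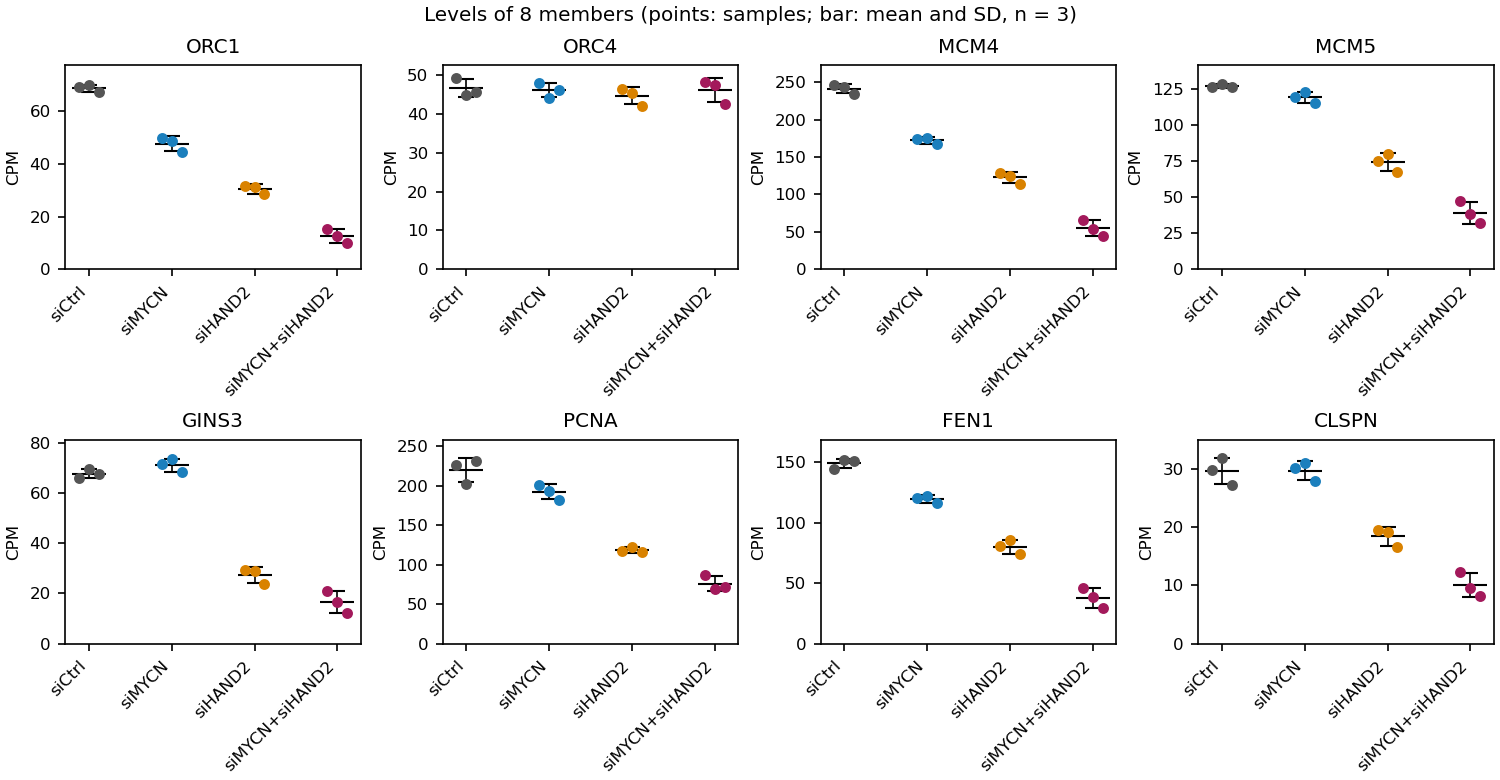
CPM as deposited (y axis, from 0) in each of the 12 samples (points, by group) for ORC1, ORC4, MCM4, MCM5, GINS3, PCNA, FEN1 and CLSPN, with the group mean and SD (n = 3). ORC1 falls from group to group, the samples of ORC4 overlap across the groups, and GINS3, CLSPN and MCM5 stay close to siCtrl with siMYCN before they fall with siHAND2.

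Direct comparison of the 2 single knockdowns showed that siHAND2 lowered most replication genes further than siMYCN did. 41 of 50 were called, all of them higher in siMYCN than in siHAND2, where 35% of tested genes were called and 26.1% were called higher in siMYCN. The median difference was 0.50 (log2), and rescaled it was 0.36 with 41 genes called higher in siMYCN (22.4% of tested genes). A difference of at least 1 was reached by 1 gene, against 2.25% of tested genes. GINS3 differed most, by 1.35 (SE 0.14, adjusted p = 1.8e-08), and TIMELESS next, by 0.93 (SE 0.12, adjusted p = 1.4e-06). The 9 genes without a call were ORC2 (0.10), ORC4 (0.04), ORC5 (0.06), POLA1 (0.32), POLD2 (0.27), RFC3 (0.19), RPA1 (0.28), RPA2 (0.26) and TIPIN (0.14). The siRNAs left different amounts of their targets, 67.5% of MYCN and 26.0% of HAND2, so the sizes of the 2 effects are those of these samples at these residual levels.

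Adding the second siRNA lowered the genes again. The target levels were not equal across these comparisons. MYCN was lower in every combined sample than in every siMYCN sample, and HAND2 was higher in siMYCN than in siCtrl. Against siMYCN alone, the combined knockdown had 49 of 50 genes called lower, with a median of -1.34, where 58.9% of tested genes were called and 50% lower. Against siHAND2 alone, 49 were called lower, with a median of -0.78, where 40.3% of tested genes were called and 31.5% lower. A fall of at least 1 was reached by 41 genes against siMYCN (6.42% of tested genes) and 9 against siHAND2 (1.32%). GINS3 changed by -2.07 (SE 0.14, adjusted p = 3.8e-12) against siMYCN and by -0.72 (SE 0.14, adjusted p = 1.6e-04) against siHAND2. ORC1 changed by -1.86 (SE 0.12, adjusted p = 3.8e-12) and -1.23 (SE 0.12, adjusted p = 6.4e-08). Rescaled medians were -1.01 and -0.59, with 48 and 47 genes called lower (26.6% and 23.6% of tested genes). ORC5 was then not called in either comparison and RPA3 not against siHAND2. ORC4 was called higher in both, by 0.34 and 0.24, as 30% and 26.1% of tested genes were. On the deposited scale RPA3 also lost its call against siHAND2 when siHAND2 replicate 2 or combined replicate 2 was left out.

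The interaction term asks whether siHAND2 changed a gene by a different log2 amount in cells with siMYCN than in cells without it. A negative value means a larger fall in the presence of siMYCN. MYCN and HAND2 levels differed between these backgrounds, as stated above, and their part in the interaction was not tested. It was negative for 48 of 50 genes and called for 19, all of them negative, where 4.01% of tested genes were called and 3.65% were called negative. None of the 50 reached -1 with a call, against 0.45% of tested genes. The median was -0.45 in the 50 genes and -0.18 in all tested genes. Rescaled, 21 genes were called and again all were negative, where 6.14% of tested genes were called, 44 of 50 were negative, and the medians were -0.27 and -0.01. The count was unstable. It was 9 without siHAND2 replicate 2, 10 without siMYCN replicate 2, 11 without siMYCN replicate 1, 12 without siCtrl replicate 3 and 42 without combined replicate 1. The share of all tested genes called in those fits is not given here. With no filter on low genes no member was called (smallest adjusted p = 0.086), although 33 had an unadjusted p under 0.05. 9 genes kept their call whichever sample was left out: CDC6, CDT1, MCM2, MCM3, MCM5, MCM6, MCM10, CDC45 and CLSPN.

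MCM2 and MCM6 had the most negative interactions of the 50 genes. MCM7, also of the MCM ring, was not called as deposited, and rescaled it was called at -0.31 (SE 0.07, adjusted p = 0.024). MCM2 changed by -0.88 (SE 0.13, adjusted p = 6.6e-06) when siHAND2 was added to control cells and by -1.76 (SE 0.13, adjusted p = 3.2e-11) when it was added to siMYCN cells, an interaction of -0.88 (SE 0.19, adjusted p = 0.0071). MCM6 gave -0.77 and -1.64 (interaction -0.87 (SE 0.19, adjusted p = 0.0076)), MCM5 -0.77 and -1.60 (interaction -0.83 (SE 0.17, adjusted p = 0.0070)) and MCM3 -0.76 and -1.59 (interaction -0.83 (SE 0.18, adjusted p = 0.0085)). For CLSPN, which was not called with siMYCN alone, the values were -0.66 and -1.50 (interaction -0.84 (SE 0.17, adjusted p = 0.0067)). The licensing loaders CDC6 and CDT1 gave interactions of -0.73 (SE 0.17, adjusted p = 0.013) and -0.72 (SE 0.16, adjusted p = 0.011), and the helicase factors MCM10 and CDC45 -0.79 (SE 0.17, adjusted p = 0.0082) and -0.69 (SE 0.16, adjusted p = 0.013). On rescaled values the interactions of MCM2, MCM6, MCM5, MCM3 and CLSPN were -0.69, -0.68, -0.65, -0.64 and -0.67, all called. On the deposited scale the values nearest 0 included ORC4 at 0.06 (SE 0.15, adjusted p = 0.83), ORC5 at 0.05 (SE 0.15, adjusted p = 0.87), RPA3 at -0.06 (SE 0.17, adjusted p = 0.85) and RFC4 at -0.12 (SE 0.17, adjusted p = 0.68), none of them called. Rescaled, ORC4 and ORC5 had the most positive values of the 50, at 0.24 (SE 0.09, adjusted p = 0.13) and 0.22 (SE 0.13, adjusted p = 0.30), not called, and GINS4 (-0.02), DBF4 (0.03) and ORC3 (-0.04) were nearest 0. The other 10 calls, for ORC1, MCM4, GINS1, GINS3, POLA2, LIG1, FEN1, TIMELESS, WDHD1 and CHAF1B, lay between -0.79 and -0.54 and were each lost without at least 1 sample. The interaction is on the log2 scale, so a gene whose 2 falls multiply has a value of 0. A negative interaction was not particular to the 50 genes. Rescaled, UHRF1 gave -0.91 (SE 0.08, adjusted p = 6.4e-05) and the mitosis gene KIF11 -0.73 (SE 0.10, adjusted p = 5.7e-04), both named after their values were seen. ASF1B (-0.61), BUB1B (-0.45) and AURKB (-0.36) were called too, while DSCC1 (-0.39), RECQL4 (-0.36) and TICRR (-0.36) were not.

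**Figure D4:**
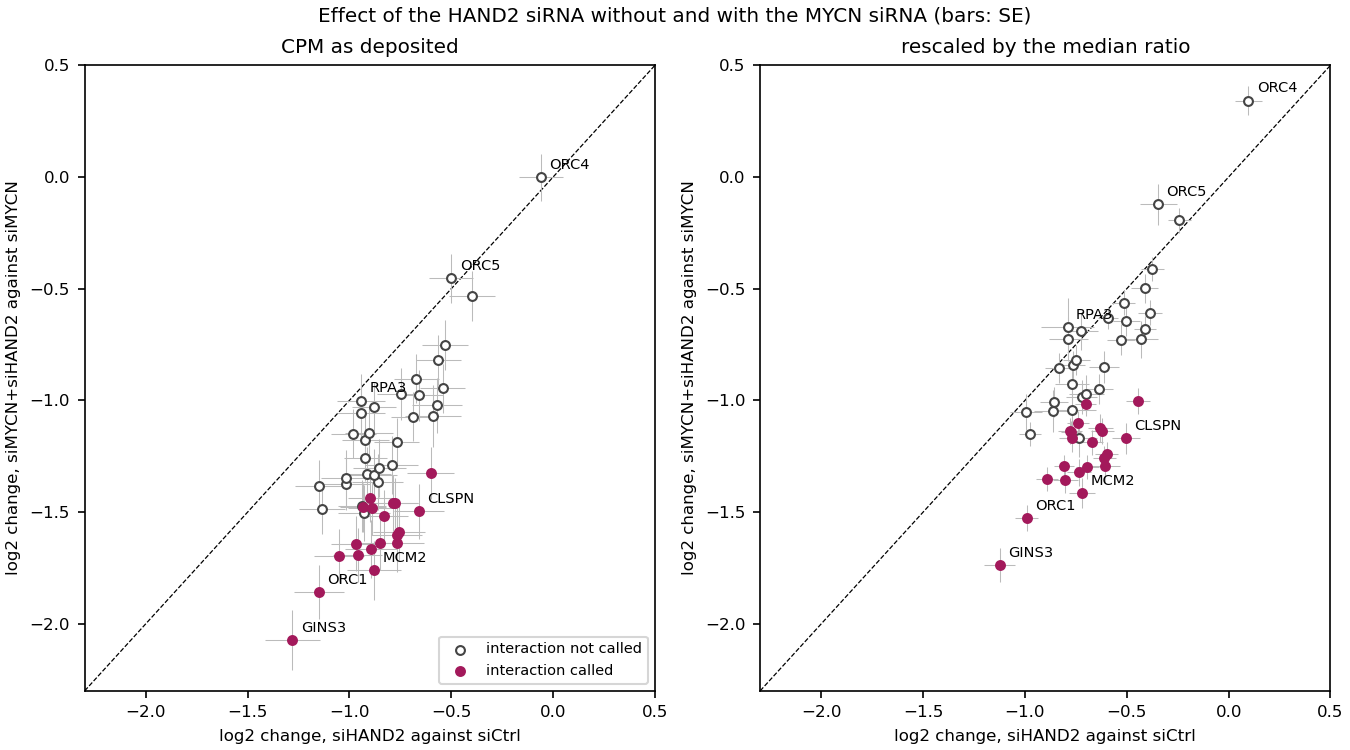
Log2 change with siHAND2 in control cells (x axis, siHAND2 against siCtrl) and in siMYCN cells (y axis, combined knockdown against siMYCN) on the log2(CPM + 1) scale for the 50 genes, as deposited and rescaled, with bars for the SE, a dashed line of equal change and filled points for a called interaction. Most points lie below the line, MCM2 and CLSPN among them, while ORC4, ORC5 and RPA3 lie on or near it as deposited and above it after rescaling.

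Changes are given here by promoter match, as a description without a test. In the combined knockdown the 30 genes with a match had a median change of -1.74 and the 13 without one -1.54. With siMYCN alone the medians were -0.30 and -0.32. The 7 genes with a CACGTG match, MCM2 and MCM7 among them, had a siMYCN median of -0.31, and the 36 without it -0.31. FEN1, MCM10 and CDC45, which changed by -1.98, -1.99 and -1.75 in the combined knockdown, had none of the E2F letters in the window, and neither had ORC4.

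Related genes outside the 50 mostly fell with siHAND2 and with both siRNAs, and fewer of them were called with siMYCN. The counts below compare with 16.3%, 30.4% and 50.1% of all tested genes called lower in siMYCN, siHAND2 and the combined knockdown as deposited, and 22.5%, 24.9% and 33% rescaled. Of 11 tested regulators of origin firing, 6 were called lower with siMYCN, 9 with siHAND2 and 11 with both siRNAs, led there by RECQL4 (-1.93 (SE 0.12, adjusted p = 4.0e-13)) and TICRR (-1.85 (SE 0.12, adjusted p = 7.6e-13)), both needed for CMG assembly. Rescaled, the counts were 10, 9 and 10. Accessory polymerase, clamp and fork subunits gave 8, 17 and 21 calls lower of 23 tested, with the histone chaperone ASF1B (-2.00 (SE 0.13, adjusted p = 9.4e-13)) and the clamp-loader subunit DSCC1 (-1.94 (SE 0.11, adjusted p = 5.6e-14)) in front, and 12, 17 and 19 rescaled. POLD4, the smallest subunit of polymerase delta, rose. It measured 1.32, 1.16 and 1.71 CPM in siCtrl, 2.56, 3.01 and 2.87 under siMYCN, 2.22, 2.44 and 2.24 under siHAND2 and 4.44, 3.50 and 2.83 under both siRNAs and changed by 0.93 (SE 0.13, adjusted p = 8.3e-07) in the combined knockdown, and it is named for this after its values were seen. Enzymes of deoxynucleotide supply were called lower in 1, 7 and 9 of 9 cases, with thymidylate synthase TYMS at -2.00 (SE 0.14, adjusted p = 5.1e-12). Rescaled, 2, 7 and 7 were called lower. RRM2B, a ribonucleotide reductase subunit, and SAMHD1, which breaks deoxynucleotides down, lost their combined call there, at 0.06 (SE 0.06, adjusted p = 0.40) and -0.01 (SE 0.07, adjusted p = 0.92).

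E2F and RB regulators were called lower in 5, 14 and 15 of 16 tested genes, and rescaled in 10, 12 and 14. RBL2, a relative of RB, lost its combined call after rescaling, at -0.01 (SE 0.06, adjusted p = 0.94). TFDP2, a partner of the E2F factors, was not called as deposited, at -0.08 (SE 0.11, adjusted p = 0.52), and was called higher after rescaling, at 0.27 (SE 0.06, adjusted p = 0.0017). RRM2B, SAMHD1, RBL2 and TFDP2 are named for these calls after their values were seen. E2F7, a repressor among the E2F factors and itself E2F-driven, changed by -0.93 (SE 0.12, adjusted p = 2.9e-06) in siMYCN and -2.32 (SE 0.12, adjusted p = 3.9e-14) in the combined knockdown, and the kinase CDK2 by -1.94 (SE 0.12, adjusted p = 6.3e-13). Replication checkpoint genes were called lower in 3, 6 and 7 of 8 (4, 6 and 5 rescaled), with CHEK1, the effector kinase, at -1.54 (SE 0.12, adjusted p = 5.6e-11) and RAD9A, of the checkpoint clamp, at -0.94 (SE 0.12, adjusted p = 1.5e-07). Genes of mitosis, taken here as markers of dividing cells, fell alongside. All 12 were called lower in siHAND2 and in the combined knockdown and 5 in siMYCN (7 rescaled), with medians of -0.33, -0.84 and -1.68 beside -0.34, -0.87 and -1.67 for the 50 replication genes. Their summed level was 1479 to 1700.0 CPM in siCtrl, 1192 to 1343 with siMYCN, 862 to 911 with siHAND2 and 434 to 574 with both siRNAs, and none of the 12 was at 0 in any sample. The mitotic kinases AURKB and BUB1B changed by -1.96 (SE 0.12, adjusted p = 3.8e-13) and -1.93 (SE 0.13, adjusted p = 3.5e-12) in the combined knockdown. The part of dividing cells in the fall of the replication genes was not tested.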

How the data were processed

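RNA of 12 IMR32 samples, 3 per group, was compared, and samples were grouped by the siRNA in their labels. The authors deposited CPM values for 27514 genes, with 0.0001 added to each value. Reads were aligned with STAR 2.5.1 and handled in Partek on hg19, per the submitters' processing notes. The counting settings, use of strand, annotation and filters are not given in the sources used here. By listed position, 6 of the 50 genes overlap another listed gene on the same strand, POLA1 and TIPIN among them, and 12 on the other strand. Divided by the CPM of 1 read, 88.6 to 90.1% of values below 20 reads were whole (tolerance 0.05), too few to treat them as counts, and 3 reads equal 0.0468 to 0.0949 CPM.

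Values were analysed as log2(CPM + 1), which understates changes of low genes, for 12680 genes (mean over all samples of 1 CPM or more). One limma 3.58.1 model (R 4.3.3, lmFit and eBayes with trend) held all 12 samples in 4 groups. It was tested on simulated data with the same spread in every group and no difference of scale between samples. That run therefore does not test the model for the wider spread of the combined samples. The 4 groups shared 1 estimate of the spread, because each had only 3 samples. Tests were two-sided with Benjamini-Hochberg adjustment over all tested genes, and a gene with an adjusted p under 0.05 is termed called. The CPM per kilobase used the length of the canonical transcript in GENCODE for GRCh37. The alternatives were other scalings, pseudocount, filters, thresholds, a replicate block, the compared groups alone and each sample left out. Replication genes and comparison lists were chosen with earlier results of these data known. Sample values are given for the genes with the most and least negative combined change on the log2(CPM + 1) scale in each of 8 roles and for genes with a called interaction. Of the other lists, the 2 with the largest combined change are named, apart from a gene not reported here.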

Additional observations from a re-analysis of the deposited data

Results flagged for a closer look

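In 19 replication genes the effect of siHAND2 differed between cells with and without siMYCN by the interaction term of the limma model (adjusted p under 0.05), and in all 19 the fall was larger with siMYCN. The MCM ring gave differences of -0.88 (MCM2), -0.87 (MCM6), -0.83 (MCM5), -0.83 (MCM3) and -0.67 (MCM4) on the log2 scale. Helicase activation factors gave -0.79 (GINS3), -0.79 (MCM10), -0.69 (CDC45) and -0.54 (GINS1). Licensing factors gave -0.73 (CDC6), -0.72 (CDT1) and -0.71 (ORC1). Synthesis and lagging-strand genes gave -0.77 (FEN1), -0.69 (POLA2) and -0.67 (LIG1). Fork and chromatin genes gave -0.84 (CLSPN), -0.65 (TIMELESS), -0.60 (CHAF1B) and -0.55 (WDHD1). The median over all tested genes was -0.18, and 4.01% of tested genes were called. After rescaling by the median ratio, 18 of the 19 were called, CHAF1B was not, and MCM7, POLD1 and CHAF1A joined them. On that scale 6.14% of tested genes were called. Rescaled, the mitosis genes AURKA, AURKB, BUB1, BUB1B, CCNB2, KIF11 and PLK1 were also called negative, and CCNB1, CDK1, CENPE, CENPF and MKI67 were not. With no filter on low genes none of the replication genes was called. The share of reads in listed genes was lowest in the combined knockdown, and its part in these differences was not tested beyond the rescaled values.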

How the results depend on the processing

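The falls with siHAND2 and with both siRNAs kept 49 lower calls under every alternative scaling, pseudocount, filter, block and left-out sample, and their sizes moved with the scale. Rescaled by the median ratio, with or without the replicate block, the median change was -0.71 in siHAND2, -1.34 in the combined knockdown, -1.01 against siMYCN and 0.36 for siMYCN against siHAND2. Rescaled to the sum over the listed genes it was -0.28 in siMYCN, -0.74 in siHAND2, -1.35 in the combined knockdown, -1.07 against siMYCN, -0.57 against siHAND2 and 0.43 for siMYCN against siHAND2. ORC4 turned from no call to higher in the combined knockdown under rescaling, at 0.34 by the median ratio and 0.33 by the listed sum, and against siMYCN at 0.34 and 0.28 (with 1 sample left out, over both scales, from -0.051 and -0.036 to 0.41 in the 2 comparisons, where the rescaled values began at 0.28).

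The siMYCN count of 28 was 44 when only its own groups were fitted, and the share of all tested genes called in that fit is not given here. With a log2 change of at least 1 also asked for, 0 genes remained in siMYCN, 7 in siHAND2, 9 against siHAND2, 1 for siMYCN against siHAND2 and 0 for the interaction. The interaction count of 19 fell to 6 at an adjusted p under 0.01 and to 0 with no filter on low genes. The cause of these changes was not tested, apart from the stricter thresholds themselves.

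With each sample left out in turn, the siMYCN count ranged from 21 to 39 (36 to 43 rescaled) and the interaction count from 9 to 42 (18 to 25 rescaled). Shares of all tested genes called in these fits are not given here. The medians over all such fits on both scales ranged from -0.36 to -0.32 in siMYCN, -0.89 to -0.67 in siHAND2, -1.78 to -1.31 in the combined knockdown, -1.47 to -0.98 against siMYCN, -0.90 to -0.56 against siHAND2, 0.34 to 0.54 for siMYCN against siHAND2 and -0.60 to -0.24 for the interaction.

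The labels do not say that samples with the same replicate number are paired, but the column headers number the libraries in runs by replicate. Deviations from the group means correlated above 0.1 in 11 of 18 same-numbered pairs (range -0.19 to 0.44), with the own number best in 23 of 36 cases. The mean correlation was 0.16 for the same number and -0.08 for other numbers. The main fit holds no replicate block. A fit with the replicate block called 36 genes in siMYCN, 44 for siMYCN against siHAND2 and 24 for the interaction, and 49 in each other comparison, and rescaled as well it called 41, 42 and 23. Shares of all tested genes called with the block are not given here, so these counts describe the 50 genes alone. Depth limits no gene here, since all 50 lay far above the level of 3 reads.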
